A study of Homo sapiens with 18 samples.

Results

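Human H1 cells, an established pluripotent stem cell line, were converted to anterior neural ectoderm (aNE) by day 2 and then kept to day 4 in a midbrain medium (aNE_M) or a hindbrain medium (aNE_H), and the messenger RNA of these day-4 cells was compared. The members are the 4 libraries aNE_M 1, aNE_M 2, aNE_H 1 and aNE_H 2 of 18 libraries in the series, which hold 9 groups of 2 biological replicates. All 4 passed day 1 in a definitive ectoderm medium with the TGF-beta receptor inhibitor A8301 at 1 µM, the MEK inhibitor trametinib at 250 nM, the porcupine inhibitor C59 at 1 µM and the BMP receptor inhibitor LDN193189 at 100 nM. Day 2 was spent in aNE medium with A8301 at 1 µM, LDN193189 at 100 nM, C59 at 1 µM and the ROCK inhibitor thiazovivin at 1 µM. Both groups were plated at 75000 cells per cm2, so the labels give no difference between them other than the medium after day 2. What the 2 media contained is not used here, and no result rests on it.

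Other libraries entered the same fit and served to place these levels. Those named here were aNE cells at day 2 (plated at 37500 cells per cm2), aNE cells in a forebrain medium at day 4 (aNE_T, 75000 cells per cm2), and cells of posterior origin at day 4 in the same midbrain (pNE_M) and hindbrain (pNE_H) media. Cells of posterior origin shared day 1 and had on day 2 A8301 at 1 µM, LDN193189 at 100 nM, thiazovivin at 1 µM, FGF2 at 20 ng/mL, XAV939 at 1 µM, a tankyrase inhibitor, and TTNPB at 50 nM, which activates retinoic acid receptors. They were plated at 150000 cells per cm2, so origin and density cannot be told apart. All groups come from 1 cell line.

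The neural plate is divided along its length by opposed transcription factors and by secreted signals. SIX3, LHX2 and FEZF1 mark its front, OTX2 the forebrain and midbrain, EN1, EN2, PAX2 and PAX5 the midbrain and the isthmus at its rear edge, and GBX2 the front of the hindbrain, while HOX genes mark most of the hindbrain and the trunk. WNT signalling through beta-catenin drives cells away from forebrain fate and switches on its own inhibitors, which are therefore used as readouts of the pathway.

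Values are TPM, a share of all transcripts scaled for transcript length, so levels of different genes can be set side by side. Differences are hindbrain minus midbrain medium on the log2(TPM + 1) scale, with a standard error (SE) and Benjamini-Hochberg adjusted p from the limma package, so that changes of weakly expressed genes come out too small. Of 37550 rows in the table, 14113 had at least 1 TPM in at least 2 of the 4 libraries and were tested. A gene was called at an adjusted p under 0.05 and a log2 difference of at least 1 in size. Of the tested genes, 386 (2.74%) were called higher in hindbrain medium and 461 (3.27%) lower. The counts of list members in anterior cells below are to be read beside these shares. The median difference of all tested genes was -0.02. The 2 groups did not overlap in any of the 847 called genes, and they did not overlap in 51.1% of all tested genes. Differences of at least 2 were seen for 94 called genes that were higher and 104 that were lower, and of at least 3 for 27 and 37 genes. The libraries of one medium correlated at r = 0.983 (hindbrain) and 0.985 (midbrain) over the tested genes, and libraries of different media at 0.952 to 0.955. Mitochondrial transcripts took 1.53% and 1.85% of TPM in midbrain medium and 2.06% and 2.00% in hindbrain medium.

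**Figure D1:**
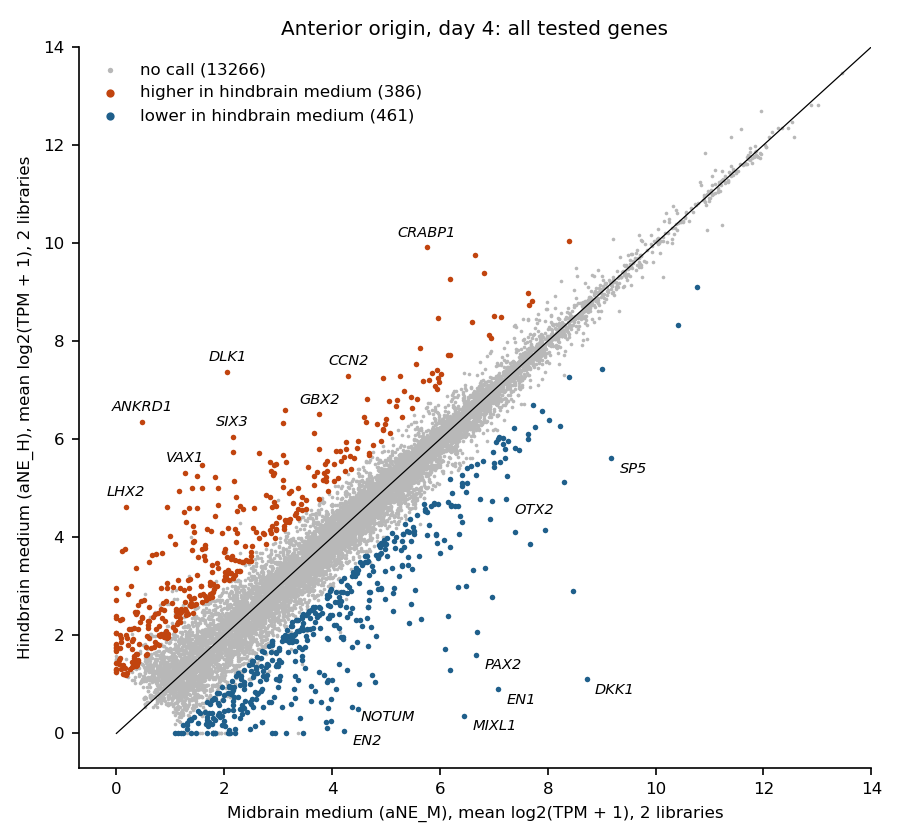
Mean level of each tested gene in the 2 libraries of aNE_M (horizontal axis) and of aNE_H (vertical axis), both log2(TPM + 1), with the line of equal levels. Coloured points are the 386 genes called higher and the 461 called lower in hindbrain medium, and DKK1 and EN1 lie farthest below the line among the labelled genes.

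Genes of the midbrain and isthmus formed the list with the lowest median. Of 14 genes, 10 were tested, 8 were called lower in hindbrain medium, 1 was called higher, and the median difference was -3.04. EN1, an engrailed homeobox gene of the midbrain and isthmus (chromosome 2, 118842171 to 118847648 on GRCh38.p14), stood at 141 and 128 TPM in the 2 libraries of midbrain medium and at 0.989 and 0.749 TPM in those of hindbrain medium. It was listed at 0 in both day-2 libraries and both libraries of forebrain medium, so its high level was limited to midbrain medium among these 4 anterior groups. The difference was -6.18 ± 0.18 (SE, adjusted p = 5.65e-11). EN2, its paralog, had 18.8 and 16.6 TPM in midbrain medium and 0 and 0.0775 TPM in hindbrain medium. PAX2, a paired-box factor that acts with the engrailed genes at the isthmus, had 100.4 and 101 TPM against 2.55 and 1.59 TPM, a difference of -5.07 ± 0.18 (SE, adjusted p = 4.7e-10). All of these pairs were far apart, with the day-2 level of PAX2 (1.04 and 1.35 TPM) close to that of hindbrain medium.

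PAX5, the partner of PAX2 at the isthmus, had 68.6 and 74.7 TPM in midbrain medium and 8.77 and 19.1 TPM in hindbrain medium, against 0.129 and 0.0652 TPM at day 2. Cells in hindbrain medium thus lay between day 2 and midbrain medium, and the 2 hindbrain libraries differed more from each other than the 2 midbrain libraries did. The difference was -2.37 ± 0.35 (SE, adjusted p = 0.00023), and with a pseudocount of 0.1 it was -2.46, as large but no longer called (adjusted p = 0.056). LMX1B, a LIM homeobox gene of the isthmus and dorsal midbrain, had 17.04 and 20.04 TPM in midbrain medium and 4.43 and 3.92 TPM in hindbrain medium. CNPY1, which promotes FGF signalling at the isthmus, had 8.02 and 5.47 TPM in midbrain medium and was listed at 0 in both libraries of hindbrain medium. TAL2, a midbrain basic helix-loop-helix factor, was also called lower, with 11.2 and 14.8 TPM against 0.206 and 1.03 TPM.

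The FGF ligands of the isthmus did not move as 1 group. FGF17 had 86.1 and 74.3 TPM in midbrain medium and 7.995 and 6.02 TPM in hindbrain medium, a difference of -3.35 ± 0.19 (SE, adjusted p = 2.15e-08). FGF8, the ligand by which the isthmus organises its neighbours, was low in midbrain medium at 2.503 and 2.42 TPM and stood at 9.83 and 5.36 TPM in hindbrain medium. Its highest level was in forebrain medium, at 77.5 and 64.8 TPM. The FGF8 difference was 1.26 ± 0.33 (SE, adjusted p = 0.0166), and its call was lost when aNE_H replicate 1, aNE_M replicate 1 or aNE_M replicate 2 was left out, which left 0 midbrain and isthmus genes called higher. FGF18 was not called (0.08 ± 0.21 SE, adjusted p = 0.858). The 4 genes that were not tested were WNT1, PAX8, LMX1A and DMBX1. WNT1, which maintains the midbrain edge of the isthmus in the embryo, was at most 0.114 TPM in any of the 4 libraries. LMX1A had 0.667 and 1.04 TPM in midbrain medium and 0.153 and 0.0756 TPM in hindbrain medium, and DMBX1 had 0.8704 and 1.14 TPM in midbrain and 0.09505 and 0.0677 TPM in hindbrain medium.

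The genes that set the midbrain-hindbrain border moved in opposite directions. OTX2, which specifies forebrain and midbrain, had 136 and 162 TPM in midbrain medium and 25.2 and 27.7 TPM in hindbrain medium, a difference of -2.45 ± 0.14 (SE, adjusted p = 2.96e-08). GBX2, its counterpart on the hindbrain side, had 16.2 and 9.67 TPM in midbrain medium and 91.95 and 88.02 TPM in hindbrain medium, a difference of 2.75 ± 0.19 (SE, adjusted p = 2.17e-07). Neither gene overlapped between media, as was so for all called genes. Hindbrain medium held the lowest OTX2 and the highest GBX2 of the 4 anterior groups. OTX2 at day 2 was 203 and 214 TPM and GBX2 was 1.04 and 1.05 TPM. OTX2 was still far above its level in cells of posterior origin in the same hindbrain medium, 1.37 and 0.908 TPM. OTX1 was called lower too, with 10.9 and 11.6 TPM against 0.878 and 0.316 TPM, and GBX1 was not tested.

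**Figure D2:**
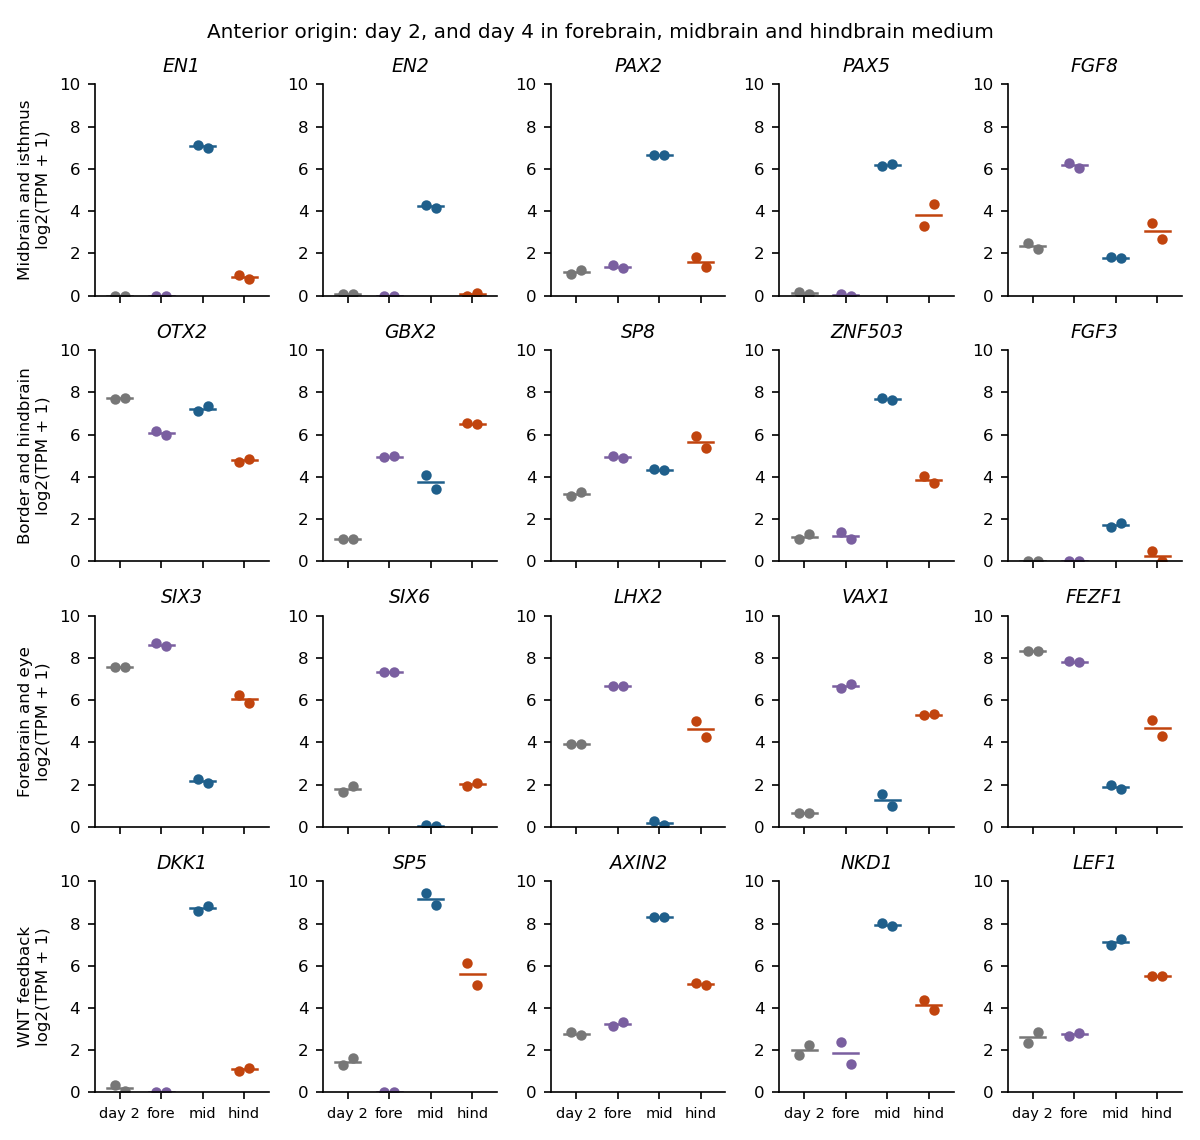
Level of 20 patterning and WNT feedback genes in each library of anterior origin on the log2(TPM + 1) scale, with points for the 2 libraries and a line for their mean, at day 2 and at day 4 in forebrain, midbrain and hindbrain medium. EN1, EN2, DKK1 and AXIN2 are high in midbrain medium, while SIX3, SIX6 and LHX2 are lowest there.

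Readouts of WNT signalling were lower in hindbrain medium. Of 18 genes, 16 were tested, 12 were called lower and 0 higher, with a median difference of -2.63. DKK1, a secreted WNT antagonist that the pathway induces (chromosome 10, 52314281 to 52317657 on GRCh38.p14), had 387 and 459 TPM in midbrain medium and 1.04 and 1.26 TPM in hindbrain medium. This was the largest negative difference of the named genes, -7.62 ± 0.17 (SE, adjusted p = 3.99e-12). AXIN2, an intracellular inhibitor of beta-catenin, had 314 and 312 TPM against 35.1 and 32.8 TPM, a difference of -3.17 ± 0.10 (SE, adjusted p = 8.33e-11). In hindbrain medium AXIN2 was above its day-2 level of 6.27 and 5.55 TPM. SP5, a transcription factor induced by beta-catenin, had 706 and 473 TPM in midbrain medium and 68.6 and 33.3 TPM in hindbrain medium, against 1.44 and 2.08 TPM at day 2. The 2 libraries of each medium differed visibly for SP5, yet the groups did not overlap, as in all called genes (-3.57 ± 0.39 SE, adjusted p = 1.64e-05).

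The remaining WNT readouts called lower act at several points of the pathway. APCDD1, a membrane inhibitor of WNT, had 337 and 373 TPM in midbrain medium and 8.01 and 5.14 TPM in hindbrain medium, a difference of -5.58 ± 0.24 (SE, adjusted p = 1.46e-09). NOTUM, a secreted enzyme that inactivates WNT ligands, had 22.4 and 17.2 TPM against 0.467 and 0.451 TPM. NKD1, which binds dishevelled, had 256 and 235 TPM against 20.04 and 14.1 TPM. The same order held for LEF1, TCF7, ZNRF3, DKK4, WIF1 and TNFRSF19, with differences from -3.65 (DKK4) to -1.03 (ZNRF3). LEF1, a DNA partner of beta-catenin, kept an intermediate level, with 45.2 and 44.9 TPM in hindbrain medium against 125 and 152 TPM in midbrain medium and 4.13 and 6.31 TPM at day 2. RNF43, a ubiquitin ligase that removes WNT receptors, went against the rest in direction and was not called, with 2.94 and 2.61 TPM in midbrain medium and 5.11 and 4.96 TPM in hindbrain medium (0.68 ± 0.19 SE, adjusted p = 0.0267). CDX2, a WNT-dependent gene of the posterior trunk, had 1.76 and 1.67 TPM in midbrain medium and 0.789 and 0.152 TPM in hindbrain medium and was not called (-0.92), but it was called under quantile normalization (-1.07, adjusted p = 0.00594), by adjusted p alone (adjusted p = 0.0223) and without aNE_H replicate 1 (-1.24).

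The 250 bases before the annotated start of 3 lowered genes are shown. They were chosen because each holds the core of the TCF/LEF motif, through which beta-catenin acts. The letters searched were CTTTGAT and CTTTGAA on either strand, and matches are in capitals (TTCAAAG is CTTTGAA on the other strand). The sequences are from RefSeq on GRCh38.p14, read 5′ to 3′ on the gene's strand, at chr2:170715087-170715336 (plus) for SP5, chr10:52314031-52314280 (plus) for DKK1 and chr1:226223414-226223663 (plus) for MIXL1, and end at the base before the start.
SP5: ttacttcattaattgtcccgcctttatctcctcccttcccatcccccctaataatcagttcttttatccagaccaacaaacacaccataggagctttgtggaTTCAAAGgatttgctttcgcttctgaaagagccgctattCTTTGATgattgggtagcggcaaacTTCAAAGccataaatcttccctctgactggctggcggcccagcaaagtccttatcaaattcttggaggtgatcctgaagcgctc
DKK1: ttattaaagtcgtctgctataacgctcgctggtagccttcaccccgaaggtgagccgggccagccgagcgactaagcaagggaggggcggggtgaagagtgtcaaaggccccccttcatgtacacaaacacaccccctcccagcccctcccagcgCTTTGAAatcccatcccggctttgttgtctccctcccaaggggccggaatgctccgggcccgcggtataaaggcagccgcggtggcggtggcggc
MIXL1: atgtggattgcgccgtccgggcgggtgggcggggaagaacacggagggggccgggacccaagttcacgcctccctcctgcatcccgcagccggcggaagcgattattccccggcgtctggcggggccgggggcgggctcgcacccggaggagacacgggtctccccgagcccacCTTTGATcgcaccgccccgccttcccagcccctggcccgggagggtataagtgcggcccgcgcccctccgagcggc
SP5 held 3 matches, the first 148 bases before the start, DKK1 held 1 at 95 bases and MIXL1 held 1 at 76 bases. Of the promoters of 10597 tested genes with a sequence, 3.55% held a match, as did 4.69% of 277 genes called higher and 5.10% of 314 genes called lower. Of 7 lowered WNT readouts with a sequence, 2 held a match (SP5 and DKK1). DKK1 and MIXL1 are among the 15 largest falls and SP5 is not. Also among the 15 largest falls, APCDD1, PAX2, ADRA2C, MYO3B, EN2, ZNF503 and AMHR2 held no match. A match is a description of these letters and not a site of binding.

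WNT ligands, receptors and secreted antagonists were split. Of 27 genes, 16 were tested, 6 were called higher, 4 lower, and the median difference was 0.42. FZD5, a WNT receptor of the forebrain and eye field, had 1.95 and 2.05 TPM in midbrain medium and 49.7 and 37.9 TPM in hindbrain medium, a difference of 3.89 ± 0.14 (SE, adjusted p = 4.7e-10). FZD8, its close paralog, had 1.399 and 1.702 TPM against 26.8 and 19.9 TPM. FZD10, a WNT receptor of the dorsal neural tube, went the other way, with 50.3 and 48.6 TPM against 4.75 and 3.44 TPM. FZD5 and FZD10 were thus high in opposite media, and neither overlapped, as was so for all called genes. FZD2, SFRP1, FRZB and DKK2 were the other genes called higher, and SFRP1, a secreted WNT antagonist of the forebrain, had 69.7 and 73.5 TPM in midbrain medium and 222 and 199 TPM in hindbrain medium. WNT4 was called lower, with 45.2 and 45.2 TPM against 7.42 and 5.92 TPM, as were WNT5B and FZD9. Without aNE_H replicate 2, the genes called lower in this list numbered 2 in place of 4.

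Genes of the forebrain and eye field were higher in hindbrain medium than in midbrain medium. Of 22 genes, 14 were tested, 8 were called higher, 2 lower, and the median difference was 1.24. SIX3, which keeps the anterior forebrain from taking on a more posterior fate (chromosome 2, 44941702 to 44946071 on GRCh38.p14), had 3.78 and 3.16 TPM in midbrain medium and 73.8 and 58.1 TPM in hindbrain medium. Day-2 cells had 187 and 192 TPM and cells in forebrain medium 414 and 379.5 TPM, so hindbrain medium held a middle level and midbrain medium the lowest. The difference between the media was 3.90 ± 0.15 (SE, adjusted p = 6.61e-10). LHX2, a LIM homeobox gene of the eye field and cortex, had 0.192 and 0.0785 TPM in midbrain medium and 31.0 and 18.1 TPM in hindbrain medium, a difference of 4.45 ± 0.32 (SE, adjusted p = 2.32e-07). VAX1, a homeobox gene of the ventral forebrain and optic stalk, had 1.92 and 1.004 TPM against 38.5 and 39.1 TPM. VAX1 was low at day 2 (0.5596 and 0.549 TPM) and highest in forebrain medium (93.7 and 107 TPM), so its level in hindbrain medium was above that of day 2.

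FEZF1, a zinc finger gene of the early forebrain, had 323 and 325 TPM at day 2, 2.89 and 2.48 TPM in midbrain medium and 32.2 and 18.4 TPM in hindbrain medium. SIX6, which follows SIX3 in the eye field, had 0.0584 and 0.0239 TPM in midbrain medium and 2.86 and 3.2 TPM in hindbrain medium, both far below the 161 and 159 TPM of forebrain medium. FEZF2, EMX1 and SFRP2 were also called higher. LHX5, HESX1 and PAX6 were not called. RAX, an eye-field gene, was not tested; it was listed at 0 in both libraries of midbrain medium and had 4.75 and 0.487 TPM in hindbrain medium. EMX2 was called lower, with 13.2 and 14.9 TPM against 1.098 and 1.03 TPM, as was VAX2. Only 5 forebrain genes were called higher with a filter at 5 TPM, because fewer genes were then tested.

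The hindbrain label was checked against its markers. None of the 39 HOX genes in the table passed the filter, 18 were above 0 in any of the 4 libraries, and the highest value was 0.27 TPM, for HOXB3 in aNE_M 2. In cells of posterior origin in the same hindbrain medium, 11 HOX genes had at least 1 TPM in both libraries. Of 14 other hindbrain genes, 9 were tested, 2 were called higher and 3 lower, with a median difference near 0 (0.000711). SP8, a zinc finger gene active at the isthmus and in the forebrain, was called higher, with 19.6 and 18.7 TPM in midbrain medium and 59.95 and 40.5 TPM in hindbrain medium (1.32 ± 0.18 SE, adjusted p = 0.000144). ZNF503 was called lower, with 211 and 195 TPM in midbrain medium and 15.3 and 11.8 TPM in hindbrain medium, as were ZNF703 and FGF3. EGR2, which defines hindbrain segments, was not tested and had 0.202 and 0.03197 TPM in hindbrain medium. HOX genes and EGR2 were thus near or at 0 in the 4 anterior libraries, and the cells are called here by their medium.

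Pan-neural genes were called in both directions. Of 20 pan-neural genes, 18 were tested, 1 was called higher (5.56%, against 2.74% of all tested genes) and 3 lower (16.7%, against 3.27%), and the median difference was -0.24. SOX2 had 73.2 and 70.4 TPM in midbrain medium and 97.8 and 79.8 TPM in hindbrain medium (0.30 ± 0.11 SE, adjusted p = 0.0905), and NES, an intermediate filament of neural progenitors, had 182 and 190.5 TPM in midbrain and 271 and 248 TPM in hindbrain medium. Neither was called. Both did not overlap between media, as was so for 51.1% of all tested genes. SOX1 was below 1 TPM in all 4 libraries. SOX21 was the gene called higher (0.614 and 0.4397 TPM against 12.9 and 8.15 TPM). ZIC1, a dorsal neural gene, was called lower, with 29.4 and 39.5 TPM in midbrain medium and 6.93 and 3.01 TPM in hindbrain medium, as were DACH1 and POU3F2. None of 6 tested pluripotency genes was called, which in a list of this size is near the 6.0% of all tested genes. By adjusted p alone, 2 of the 6 were higher and 1 lower, where 7.91% of all tested genes were higher and 9.71% lower. POU5F1 had 2.903 and 2.65 TPM in midbrain medium and 2.14 and 3.397 TPM in hindbrain medium.

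**Figure D3:**
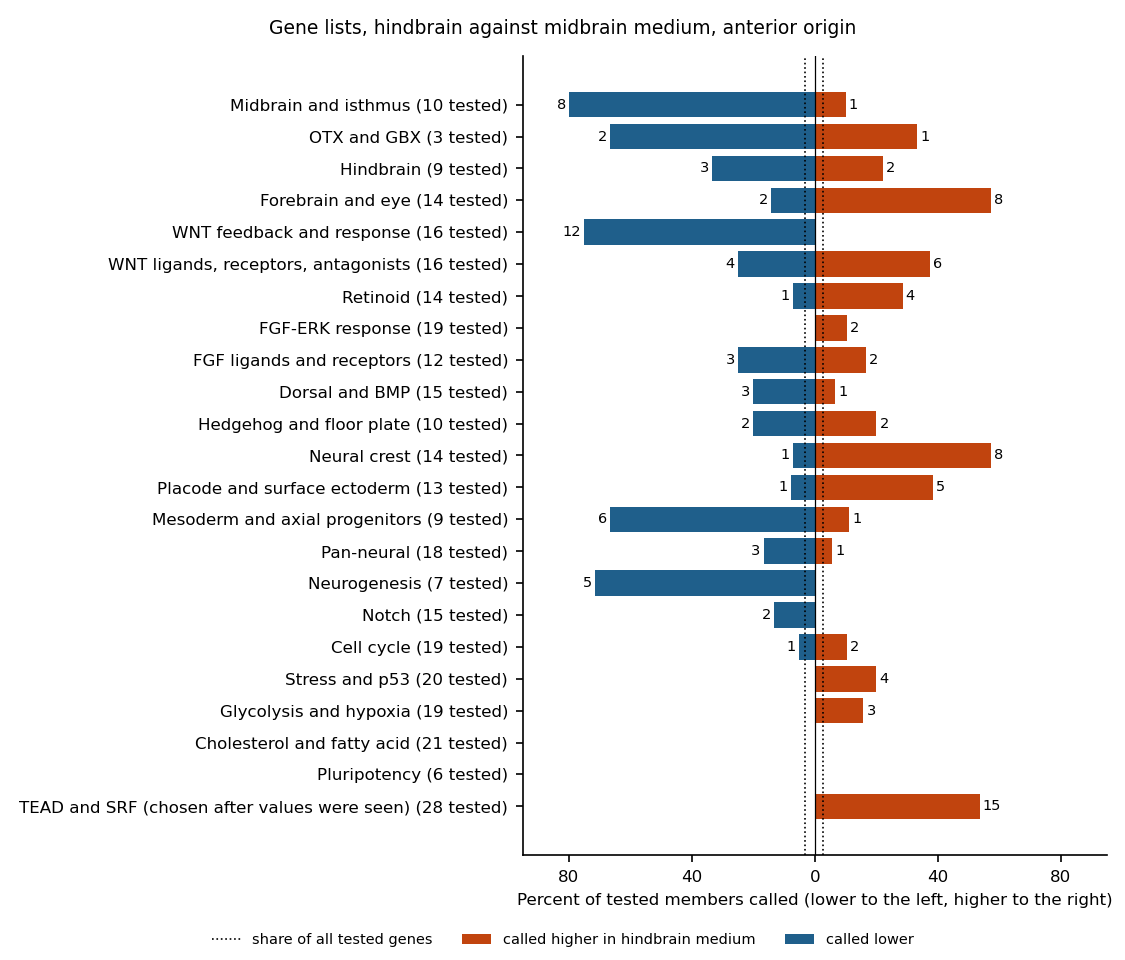
Percent of the tested members of each gene list called lower (left) or higher (right) in hindbrain medium, with the number of genes at the end of each bar and dotted lines at the 3.27% and 2.74% of all tested genes. The longest bars to the left are those of midbrain and isthmus (8 of 10) and WNT feedback and response (12 of 16), and the forebrain and neural crest lists each have 8 of 14 to the right.

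Retinoid genes held the call with the smallest adjusted p. CRABP1, a cytoplasmic protein that binds retinoic acid, had 53.5 and 52.5 TPM in midbrain medium and 983 and 946 TPM in hindbrain medium, a difference of 4.16 ± 0.06 (SE, adjusted p = 6.92e-14). Of 21 retinoid genes, 14 were tested, 4 were called higher and 1 lower, and the median difference was -0.21. NR2F1 and NR2F2, nuclear receptors that retinoic acid induces, were called higher, and NR2F1 had 3.67 and 4.52 TPM against 23.3 and 22.2 TPM. NRIP1, a nuclear receptor co-repressor, had 15.9 and 20.5 TPM against 55.9 and 52.98 TPM. Other genes that retinoic acid induces were not called or not tested, and whether retinoid signalling differed was not tested. CYP26A1, which degrades retinoic acid and is strongly induced by it, had 2.11 and 1.15 TPM in midbrain medium and 2.49 and 2.62 TPM in hindbrain medium (0.46 ± 0.17 SE, adjusted p = 0.0912), and RARB, a receptor induced by its ligand, was below 1 TPM in all 4 libraries. In hindbrain medium, cells of posterior origin had 56.9 and 65.5 TPM of RARB. DHRS3, a further retinoid-induced enzyme, was not called (-0.26). RDH10, which makes retinal, was called lower, with 55.97 and 65.97 TPM against 19.4 and 9.69 TPM, and 2 retinoid genes were called lower without aNE_M replicate 2.

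Of 19 readouts of FGF and ERK signalling, all were tested, 2 were called higher (10.5%, against 2.74% of all tested genes) and 0 lower, and the median difference was 0.30. By adjusted p alone, with no minimum size, 7 were higher and 2 lower, where 7.91% of all tested genes were higher and 9.71% lower. SPRY2 and DUSP6, feedback inhibitors induced by ERK, stayed under the size needed for a call. They did not overlap between media, as was so for 51.1% of all tested genes. DUSP6 had 228 and 224 TPM in midbrain medium and 336 and 352 TPM in hindbrain medium (0.60 ± 0.08 SE, adjusted p = 6.27e-05), and SPRY2 had 73.0 and 77.9 TPM in midbrain and 125 and 125 TPM in hindbrain medium. At day 2 DUSP6 was 29.3 and 33.6 TPM, so both media were far above day 2. The called genes were PHLDA1 (1.72 and 1.68 TPM against 14.2 and 14.2 TPM) and MYC (8.06 and 5.29 TPM against 48.1 and 31.5 TPM). Among 18 FGF ligands, receptors and binding proteins, 12 were tested, 2 were called higher and 3 lower. FGFR3, an FGF receptor, had 3.47 and 3.81 TPM in midbrain medium and 29.4 and 25.6 TPM in hindbrain medium, a difference of 2.62 ± 0.18 (SE, adjusted p = 1.31e-07). FGF19 was the ligand with the largest difference, 67.5 and 66.8 TPM against 2.75 and 1.88 TPM (-4.38 ± 0.20 SE, adjusted p = 2.71e-09). FGFBP3 was called higher, and 1 gene in place of 2 was called higher without aNE_H replicate 1 or without aNE_M replicate 2.

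Of 20 dorsal and BMP genes, 15 were tested. Of these, 1 was called higher (6.67%, against 2.74% of all tested genes) and 3 lower (20.0%, against 3.27%), with a median of -0.33. MSX1, a homeobox gene of the dorsal neural tube, had 279.8 and 243 TPM in midbrain medium and 87.03 and 79.8 TPM in hindbrain medium, both well above the 0.631 and 0.271 TPM of day 2. PAX3, which marks the dorsal neural tube, had 120.4 and 130.0 TPM against 54.2 and 50.4 TPM, and BMP2 was lower too. ID4, an inhibitor of basic helix-loop-helix factors, was the gene called higher, with 9.34 and 6.47 TPM against 95.8 and 96.6 TPM (3.47 ± 0.13 SE, adjusted p = 6.61e-10), and 2 genes were called higher without aNE_M replicate 1. Of 18 hedgehog and floor plate genes, 10 were tested, with HHIP and BOC called higher and FOXJ1 and NKX6-1 lower. This was 20.0% of the tested members in each direction. HHIP, which binds hedgehog ligands, had 5.53 and 6.901 TPM in midbrain medium and 29.3 and 25.1 TPM in hindbrain medium. SHH and FOXA2, which define the floor plate, were at most 0.5005 TPM in any of the 4 libraries.

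Markers of other cell types moved with the medium. In whole-culture RNA, fewer cells of a type and less RNA per cell cannot be told apart. Of 15 neural crest genes, 14 were tested, 8 were called higher and 1 lower (median 1.18), and the summed level of the list was 131 and 140 TPM in midbrain medium and 295 and 275 TPM in hindbrain medium. The crest genes whose values are given here made up only a small part of these sums. SOX10, the defining crest factor, had 0.539 and 0.756 TPM in midbrain medium and 4.96 and 3.904 TPM in hindbrain medium, and TFAP2A had 0.6596 and 0.6599 TPM in midbrain and 4.3 and 2.64 TPM in hindbrain medium. The call of TFAP2A was lost without aNE_H replicate 1, aNE_M replicate 1 or aNE_M replicate 2, with differences of 1.13 to 1.40 that were then not called. These defining genes stayed low, and FOXD3, an early crest gene, was at most 0.286 TPM in any of the 4 libraries. TWIST1 (1.93 and 2.89 TPM against 16.8 and 16.01 TPM) and SNAI2 (9.02 and 7.88 TPM against 29.3 and 30.2 TPM), regulators of epithelial-mesenchymal transition, had larger levels. SOX9 was also called higher, and SOX8 was called lower. None of the 15 crest genes was listed at 0 in all 4 libraries.

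Of 18 placode and surface ectoderm genes, 13 were tested, 5 were called higher and 1 lower (median 0.52). DLX5, a homeobox gene of the neural plate border, had 8.66 and 7.09 TPM in midbrain medium and 49.6 and 41.1 TPM in hindbrain medium, a difference of 2.39 ± 0.15 (SE, adjusted p = 8.96e-08). DLX6, GATA3 and CDH1 were higher as well, KRT19 was lower, and none of the 18 genes was listed at 0 in all 4 libraries. The summed level of the list was 1217 and 1140.0 TPM in midbrain medium and 1597 and 1478 TPM in hindbrain medium, of which DLX5 was only a small part.

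Mesoderm and axial progenitor genes were lower in hindbrain medium: of 16 genes, 9 were tested, 6 were called lower and 1 higher (median -2.11). MIXL1, a homeobox gene of the primitive streak (chromosome 1, 226223664 to 226227060 on GRCh38.p14), had 78.03 and 94.9 TPM in midbrain medium and 0.146 and 0.445 TPM in hindbrain medium, a difference of -6.08 ± 0.26 (SE, adjusted p = 1.51e-09). EOMES, a T-box gene of mesoderm and endoderm, had 16.2 and 16.9 TPM against 1.53 and 1.801 TPM. TBXT, the defining T-box gene of the streak, had 2.72 and 4.01 TPM in midbrain medium and was listed at 0 in both libraries of hindbrain medium. MEOX1, EVX1 and NKX1-2 were the other genes called lower. KDR, an endothelial receptor, was the gene called higher, and a second gene was called higher without aNE_H replicate 1. Summed over the list, levels were 134 and 157 TPM in midbrain medium and 23.3 and 24.2 TPM in hindbrain medium, with CDX4 listed at 0 in all 4 libraries. Endoderm markers were low, with 4 of 9 tested, 1 called higher, 2 lower and SOX17 listed at 0 in all 4 libraries. The part of crest, placode and mesoderm cells in the patterning differences above was not tested.

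Most tested genes of neurogenesis were lower in hindbrain medium. Of 19 genes, 7 were tested, 5 were called lower and 0 higher (median -1.57). The summed level of all 19 was 705 and 653 TPM in midbrain medium and 309 and 280 TPM in hindbrain medium. TUBB3 alone made up most of this sum in each library. STMN2, a tubulin-binding protein of growing axons, had 20.4 and 22.4 TPM in midbrain medium and 0.519 and 0.308 TPM in hindbrain medium, a difference of -3.99 ± 0.21 (SE, adjusted p = 9.98e-09). TUBB3, a neuronal tubulin, had 536 and 489.7 TPM against 180.4 and 164 TPM, and stood at 383 and 398 TPM at day 2. NEUROG1, which starts neuronal differentiation, had 1.68 and 3.67 TPM in midbrain medium and was listed at 0 in both libraries of hindbrain medium. HES6 and GADD45G, which accompany neuronal commitment, were lower as well. DCX and ELAVL3, markers of young neurons, did not pass the filter and were not tested. Among 15 tested Notch genes, HEY1 and HEY2 were called lower (13.3%, against 3.27% of all tested genes). HEY1, a transcriptional repressor induced by Notch, had 13.8 and 14.7 TPM against 1.16 and 1.09 TPM. The other 13 were not called.

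Several of the largest rises belong to no patterning list. ANKRD1, a muscle ankyrin-repeat protein and common target of YAP and TEAD, had 0.491 and 0.306 TPM in midbrain medium and 78.4 and 83.7 TPM in hindbrain medium. Its difference was the largest rise among named genes, 5.88 ± 0.20 (SE, adjusted p = 3.6e-10). DLK1, a membrane protein related to Notch ligands, had 2.98 and 3.35 TPM against 184 and 148 TPM (5.32 ± 0.20 SE, adjusted p = 6.61e-10). JUN, a subunit of the AP-1 transcription factor, had 0.946 and 0.882 TPM in midbrain medium and 26.6 and 20.99 TPM in hindbrain medium (3.69 ± 0.14 SE, adjusted p = 4.7e-10). At day 2, DLK1 stood at 124 and 139.8 TPM and JUN at 16.8 and 18.5 TPM, far above midbrain medium. SST, a neuropeptide, NPPB, a natriuretic peptide, and CALB2, a calcium-binding protein of neurons, were also among the 15 largest rises. SST had 1.62 and 2.05 TPM against 39.8 and 34.4 TPM, NPPB 0.156 and 0 TPM against 10.1 and 14.6 TPM, and CALB2 2.41 and 1.04 TPM against 32.9 and 29.7 TPM. SORBS2, a cytoskeletal adaptor, had 2.396 and 4.88 TPM against 60.1 and 46.3 TPM and 151 and 154 TPM at day 2.

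ANKRD1 was then set among targets of TEAD and SRF, factors that respond to cell shape and actin, in a list of 28 genes chosen after values were seen. Its count is a description only. All 28 were tested, 15 were called higher and 0 lower, with a median of 1.42. CCN2, a matricellular protein and standard target of YAP, had 18.8 and 18.7 TPM in midbrain medium and 158 and 154 TPM in hindbrain medium. CCN1 had 8.52 and 6.54 TPM against 81.05 and 77.8 TPM. TAGLN, an actin-binding protein of smooth muscle, had 107 and 93.2 TPM against 815 and 910.0 TPM (3.09 ± 0.08 SE, adjusted p = 1.94e-11), and TPM1, a tropomyosin, had 111 and 113 TPM against 657 and 692 TPM (2.58 ± 0.06 SE, adjusted p = 4.35e-12). Each of these 4 genes was closely repeated between libraries of a medium, and each was also well above midbrain medium at day 2, for instance 159 and 162 TPM for CCN2. Day-2 cells were plated at 37500 against 75000 cells per cm2 and had thiazovivin in their medium. Day, density and medium thus cannot be told apart in that comparison. Between midbrain and hindbrain medium, the regulators themselves were not called. YAP1 had 144 and 160.5 TPM against 168 and 152 TPM (0.07, adjusted p = 0.573). SRF had 48.5 and 46.7 TPM against 72.04 and 65.8 TPM (0.52, adjusted p = 0.00145) and stayed under the size needed for a call. In cells of posterior origin, 2.64% of all tested genes were called higher in hindbrain medium and 2.92% lower. Of the 28 genes, 5 were called higher there and 0 lower, with a median of 0.04. The difference between origins was called for 12 genes and was negative in these 12. The list was chosen with the anterior values in view, and the interaction subtracts those values, so this sign is favoured by the choice and is a description only.

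**Figure D4:**
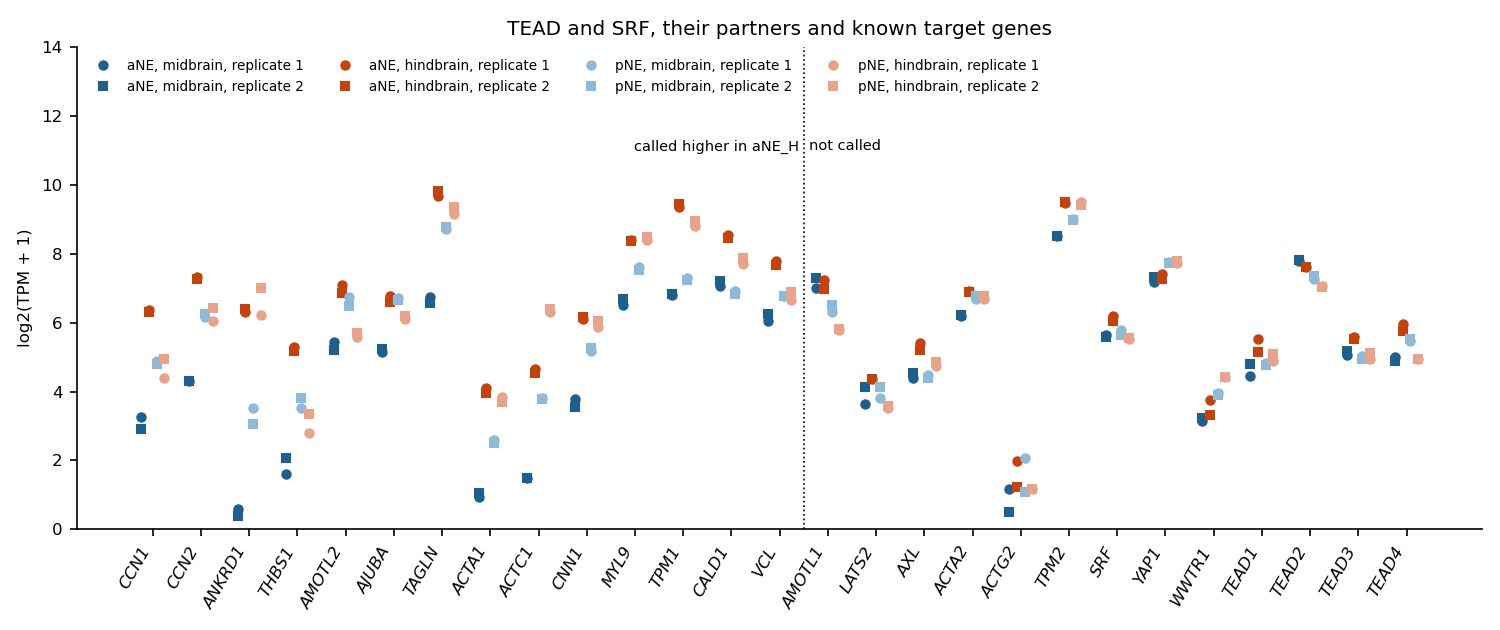
Level of 27 of the 28 genes of the TEAD and SRF list, on the log2(TPM + 1) scale, for each library of anterior (dark) and posterior (light) origin in midbrain (blue) and hindbrain (orange) medium. Left of the dotted line are 14 of the 15 genes called higher in aNE_H, whose separation in anterior cells follows from that call, and right of it the 13 not called, with mean differences under 1 in size.

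The falls that belong to no patterning list were led by receptors. APLNR, the receptor for apelin, had 67.3 and 76.97 TPM in midbrain medium and 1.43 and 1.45 TPM in hindbrain medium, a difference of -4.90 ± 0.18 (SE, adjusted p = 6.02e-10). ADRA2C, an adrenergic receptor, had 107 and 97.5 TPM against 4.504 and 2.21 TPM (-4.62 ± 0.22 SE, adjusted p = 4.4e-09). MYO3B, a myosin with a kinase domain, had 111 and 139 TPM against 6.34 and 5.37 TPM. AMHR2, the receptor for anti-Müllerian hormone, had 11.4 and 17.1 TPM in midbrain medium and 0.151 and 0 TPM in hindbrain medium. Day-2 levels of APLNR (0.0344 and 0 TPM) and AMHR2 (0.0429 and 0.469 TPM) were near 0, so midbrain medium held the high level.

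Metabolic, growth and cell-cycle lists differed in how many members were called. In either direction, 6.0% of all tested genes were called, against 15.8% of cell-cycle, 15.8% of glycolysis and hypoxia, 20.0% of stress and p53 and 36.4% of insulin-like growth factor genes. None of 21 cholesterol and fatty acid genes and none of 8 early-embryo RNA-binding genes was called, which in lists of this size is near the share of all tested genes. By adjusted p alone, 2 of the 21 were higher and 4 lower, and 3 of the 8 were higher and 0 lower. Of all tested genes, 7.91% were higher and 9.71% lower by that rule. Of 19 tested cell-cycle genes, CDKN2A and CDKN2B were called higher and CDKN1C lower, and MKI67, a proliferation marker, was not called (-0.08 ± 0.13 SE, adjusted p = 0.738). CDKN1C, a cyclin-dependent kinase inhibitor, had 78.2 and 68.4 TPM in midbrain medium and 25.1 and 22.7 TPM in hindbrain medium. Of 20 stress and p53 genes, 4 were called higher and 0 lower, and these were ASNS, CHAC1, TRIB3 and DDIT3. All 4 are targets of the transcription factor ATF4 in the response to amino acid shortage. ASNS, asparagine synthetase, had 47.05 and 50.2 TPM against 217 and 244 TPM (2.22 ± 0.10 SE, adjusted p = 1.71e-09), and CHAC1 had 5.76 and 6.74 TPM against 46.4 and 44.2 TPM. Among 19 tested glycolysis and hypoxia genes, VEGFA, ADM and SLC2A3 were called higher, and SLC2A3, a glucose transporter, had 314 and 361 TPM against 1080.0 and 1035 TPM. Other lists had 6 higher and 4 lower of 28 guidance genes, 2 higher and 1 lower of 29 matrix and integrin genes, 2 higher and 0 lower of 11 cadherin and epithelial genes, and 3 higher and 1 lower of 11 insulin-like growth factor genes. The guidance genes called higher numbered 3 without aNE_H replicate 1 and 2 without aNE_M replicate 1, and the matrix genes called higher numbered 1 without either of these libraries. IGFBP3, an insulin-like growth factor binding protein, had 1.51 and 1.88 TPM in midbrain medium and 16.8 and 18.8 TPM in hindbrain medium, against 745 and 769 TPM in forebrain medium. Of 8 tested NODAL and TGF-beta genes, CER1 and INHBE were called higher and 0 lower. Of 5 tested diencephalon and IRX genes, IRX2 and TCF7L2 were called higher and WNT8B lower.

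The level of the called genes was then placed against other groups of the same fit, whose libraries entered the calls through the shared estimate of spread. Of the 386 genes called higher in hindbrain medium, the mean of forebrain medium was nearer to hindbrain than to midbrain medium for 306 (79.3%), and above both for 226 (58.5%). Over all 6561 tested genes with a higher level in hindbrain medium, called or not, these shares were 60.2% and 48.9%. Of the 461 called lower, forebrain medium was nearer to hindbrain medium for 353 (76.6%), and below both for 195 (42.3%), against 53.1% and 39.1% of all 7552 tested genes with a lower level. At day 2, the level was nearer to hindbrain medium for 233 (60.4%) of the genes called higher and 305 (66.2%) of those called lower, against 54.4% and 54.9% of all tested genes with a higher or a lower level. Genes such as DKK1 (0.257 and 0.04798 TPM at day 2 and listed at 0 in both libraries of forebrain medium), APCDD1 (2.79 and 2.21 TPM at day 2 and 2.87 and 1.38 TPM in forebrain medium) and FGF19 (0.291 and 0.237 TPM at day 2 and 0.556 and 0.317 TPM in forebrain medium) were high in midbrain medium alone among the 4 anterior groups. GBX2, NR2F1 (0.0701 and 0.381 TPM at day 2 and 0.659 and 0.422 TPM in forebrain medium) and SST (listed at 0 in both day-2 libraries) were highest in hindbrain medium.

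The same media were compared in cells of posterior origin, with no library shared between the 2 comparisons. Only genes that passed the filter on the 4 anterior libraries were tested, so genes expressed in posterior cells alone are missing from the posterior counts. Of the tested genes, 372 (2.64%) were called higher in pNE_H than in pNE_M and 412 (2.92%) lower. Of the 386 genes called higher in anterior cells, 106 were called higher in posterior cells, which is 27.5% of the anterior and 28.5% of the posterior list, and 14 were called lower. Of the 461 genes called lower in anterior cells, 135 were called lower in posterior cells, which is 29.3% of the anterior and 32.8% of the posterior list, and 17 were called higher. In the posterior cells, the median difference was 0.46 for the genes called higher and -0.48 for those called lower in anterior cells. The difference between the origins was tested directly, as the posterior difference minus the anterior one. It was called positive for 507 genes (3.59%) and negative for 484 (3.43%). With a filter over all 18 libraries, it was called positive for 629 genes and negative for 562.

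WNT readouts were lower in hindbrain medium in both origins. In posterior cells 11 of the 16 tested genes were called lower and 0 higher, with a median of -1.68. DKK1 had 91.8 and 97.6 TPM in pNE_M and 0.119 and 0.302 TPM in pNE_H, and NKD1 had 156 and 139 TPM in pNE_M and 6.704 and 4.09 TPM in pNE_H. The origins parted for SP5, which had 756 and 624 TPM in pNE_M and 0.171 and 0.0905 TPM in pNE_H, so that the drop was deeper in posterior cells (interaction -5.68 ± 0.55 SE, adjusted p = 1.11e-05). AXIN2 had 272 and 268 TPM in pNE_M and 73.3 and 66.2 TPM in pNE_H, a smaller drop than in anterior cells (interaction 1.23 ± 0.14 SE, adjusted p = 3.16e-05).

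Of the 10 tested midbrain and isthmus genes, 2 were called lower and 0 higher in posterior cells. The interaction was called for 8, 7 of them positive, where 3.59% of all tested genes were called positive and 3.43% negative. Genes entered the test by their level in the 4 anterior libraries, and the interaction subtracts the anterior difference. The signs in this list and in the forebrain list are thus favoured by the choice and are a description only. EN1 was at 0 in the table for pNE_M 1 and 2 and had 0.113 and 0.0744 TPM in pNE_H (interaction 6.31 ± 0.26 SE, adjusted p = 6.61e-09). PAX2 was lower in hindbrain medium in both origins, with 33.02 and 33.1 TPM in pNE_M and 5.71 and 3.98 TPM in pNE_H, and the drop was deeper in anterior cells (interaction 2.51 ± 0.26 SE, adjusted p = 1.9e-05). FGF17 was the exception to the positive interactions, with 28.7 and 23.2 TPM in pNE_M and 0.05799 and 0 TPM in pNE_H. Of the 14 tested forebrain genes, 2 were called higher in posterior cells and the interaction was called for 9, with 7 negative. LHX2 had 1.83 and 0.264 TPM in pNE_M and 1.63 and 2.03 TPM in pNE_H (interaction -3.87 ± 0.45 SE, adjusted p = 4.57e-05). SIX3 had 0.129 and 0.184 TPM in pNE_M and 10.8 and 10.4 TPM in pNE_H, a rise whose size was not called different from that in anterior cells (interaction -0.57 ± 0.21 SE, adjusted p = 0.0914). GBX2 likewise had 5.22 and 6.44 TPM in pNE_M and 33.1 and 24.8 TPM in pNE_H, with no called interaction (-0.62 ± 0.27 SE, adjusted p = 0.159).

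**Figure D5:**
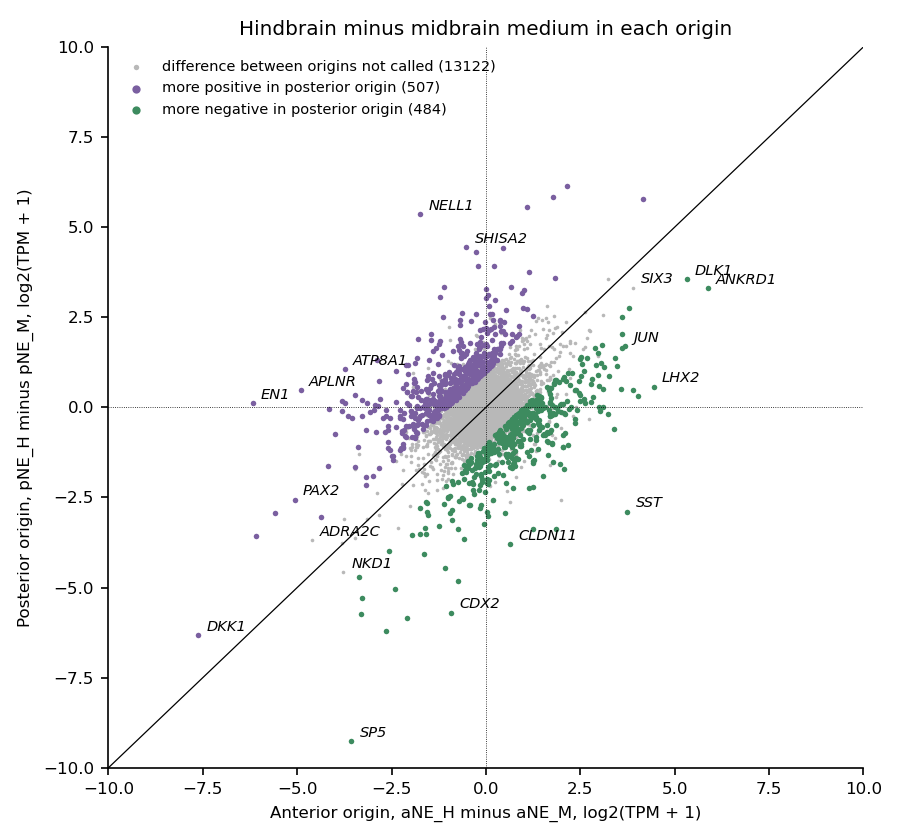
Difference between hindbrain and midbrain medium in cells of anterior (horizontal axis) and posterior origin (vertical axis) for each tested gene, both on the log2(TPM + 1) scale, with the line of equal differences. Coloured points are the 507 genes with a more positive and the 484 with a more negative difference in posterior cells, and EN1 lies far to the left near 0 on the vertical axis.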

How the data were processed

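Poly-A RNA of the H1 line was sequenced, per the labels' protocols. The values are TPM per gene and library, which the authors computed and deposited as 1 table. The submitters' processing notes name bcl2fastq, FastQC, Trim Galore, kallisto and deepTools, and the genome build hg38; the annotation is not given in the sources used here. TPM keeps no read number, so depth and counting error are unknown, and a 0 is read only as listed at 0.

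Groups were taken from the labels, which call the 2 libraries of a group biological replicates; p-values measure the spread between such libraries. With limma 3.58.1 in R 4.3.3, 1 mean per group was fitted to log2(TPM + 1) of all 18 libraries (pseudocount 1, 9 residual degrees of freedom, variance trend on mean level). Tests were two-sided, with adjustment over 14113 genes. The script was tested on simulated data. Named genes were those of the gene lists, the 15 strongest rises and the 15 strongest falls among called genes that had a symbol, no overlap between groups and a mean of 5 TPM or more in the higher group, and the 5 largest interactions each way. The comparison, the lists and the rules were chosen with earlier results of these data known, and the TEAD and SRF list after its values were seen. Comparisons with day 2 are given as levels only. Coordinates and promoters are RefSeq's on GRCh38.p14; 592 of 593 genes listed matched by symbol. Some listed genes enter the counts but their values are not reported here. Alternatives were a pseudocount of 0.1, filters at 0, at 5 TPM and over all 18 libraries, quantile normalization, median-ratio scaling, fitting only the libraries compared, a replicate block, a call by adjusted p alone, and leaving out each library.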

Additional observations from a re-analysis of the deposited data

Results flagged for a closer look

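The results set apart here are the 5 largest positive and the 5 largest negative interactions, in which the difference between hindbrain and midbrain medium was tested between cells of posterior and anterior origin (limma, Benjamini-Hochberg adjusted p), and in which the library-by-library differences of the origins did not overlap. Plating density differed between the origins, so density and origin cannot be told apart. Only genes that passed the filter on the 4 anterior libraries were tested. NELL1, a secreted protein with EGF-like domains, had an interaction of 7.09 ± 0.25 (SE, adjusted p = 2.58e-09): anterior cells had 4.41 and 4.05 TPM in midbrain and 0.558 and 0.586 TPM in hindbrain medium, and posterior cells had 0.922 and 1.103 TPM in midbrain and 72.5 and 90.9 TPM in hindbrain medium. EN1 had an interaction of 6.31 ± 0.26 (SE, adjusted p = 6.61e-09), with its high level in anterior cells in midbrain medium only among these 4 groups. APLNR had 5.38 ± 0.26 (SE, adjusted p = 1.89e-08), with posterior levels of 9.48 and 9.54 TPM in midbrain and 15.4 and 12.04 TPM in hindbrain medium. SHISA2, which retains FZD and FGF receptors in the endoplasmic reticulum, had 4.97 ± 0.18 (SE, adjusted p = 2.58e-09), and its anterior difference was not called (-0.52) while posterior cells had 0.231 and 0.397 TPM in midbrain and 29.4 and 26.2 TPM in hindbrain medium. ATP8A1, a phospholipid flippase, had 4.81 ± 0.27 (SE, adjusted p = 7.3e-08), with 22.6 and 31.6 TPM in midbrain and 1.16 and 1.002 TPM in hindbrain medium in anterior cells.

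Among the negative interactions, SST had -6.64 ± 0.28 (SE, adjusted p = 6.61e-09), since anterior cells were higher in hindbrain medium while posterior cells had 70.8 and 64.4 TPM in midbrain and 8.33 and 8.12 TPM in hindbrain medium. SP5 had -5.68 ± 0.55 (SE, adjusted p = 1.11e-05), with both origins lower in hindbrain medium. CDX2 had -4.78 ± 0.36 (SE, adjusted p = 1.09e-06), and its high level was in posterior cells in midbrain medium (247 and 252 TPM against 3.34 and 4.39 TPM in hindbrain medium). CLDN11, a tight junction protein, had -4.43 ± 0.26 (SE, adjusted p = 9.54e-08), with posterior levels of 98.7 and 91.2 TPM in midbrain and 6.05 and 5.79 TPM in hindbrain medium. TRGJP1, a short joining segment of the T-cell receptor gamma locus, had -5.24 ± 1.63 (SE, adjusted p = 0.045), and its anterior groups overlapped, with 0 and 5.39 TPM in midbrain and 20.9 and 2.89 TPM in hindbrain medium.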

How the results depend on the processing

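Over all tested genes, the counts of called genes moved by over 1.5 times under 1 alternative, a call by adjusted p alone, which gave 1117 genes higher and 1370.0 lower in hindbrain medium, and 1041 positive and 1109 negative interactions. With a filter at 5 TPM, which tests fewer genes, 5 forebrain genes were called higher in place of 8 and 1 lower in place of 2, 3 neurogenesis genes lower in place of 5, 3 placode genes higher in place of 5, 1 matrix, 1 NODAL and 1 cell-cycle gene higher in place of 2 each, 1 hedgehog gene lower in place of 2, 1 endoderm gene lower in place of 2, and 0 endoderm genes higher and 0 diencephalon genes lower in place of 1 each. With a pseudocount of 0.1, 4 Notch genes were called lower in place of 2, 2 dorsal and 2 mesoderm genes higher in place of 1 each, 1 cell-cycle gene higher in place of 2, and 0 midbrain and isthmus genes higher in place of 1. Quantile normalization gave 2 mesoderm genes higher in place of 1, and the fit of the compared libraries 1 matrix gene higher in place of 2. By adjusted p alone, the genes called higher were 7 FGF and ERK readouts in place of 2, 10 matrix genes in place of 2, 9 placode genes in place of 5, 8 stress genes in place of 4, 6 cell-cycle and 6 cadherin genes in place of 2 each, 6 glycolysis genes in place of 3 and 4 dorsal genes in place of 1. Those called lower were 10 guidance genes in place of 4, 5 retinoid genes in place of 1, 5 Notch genes in place of 2, 4 matrix genes in place of 1 and 4 hedgehog genes in place of 2. The same rule gave 3 insulin-like growth factor genes lower, 2 pan-neural and 2 mesoderm genes higher, and 2 placode and 2 cell-cycle genes lower, in place of 1 each. Leaving out 1 library gave 340.0 to 434 genes called higher, 408 to 514 called lower, 448 to 527 positive and 424 to 496 negative interactions. In the fit with a replicate block, 386 genes were called higher and 461 lower, with 508 positive and 477 negative interactions, and no call of a named gene changed. Replicate numbers did not pair the libraries: same-numbered aNE_H and aNE_M libraries deviated with r = 0.0196, and over 36 pairs of groups r ran from -0.147 to 0.113. The share of called genes that were higher was 45.6%, and 44.9% to 48.7% under the other scalings, the pseudocount of 0.1 and the call by adjusted p alone.

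Of 159 tested genes named, 138 were called, and 125 of these under each alternative that tested them. Under the pseudocount of 0.1, CDKN2A, FGF8, PAX5 and TFAP2A lost their calls, as did WNT5B and ZNRF3 under quantile normalization, and EMX1 and GADD45G in the fit of the compared libraries. CDX2, not called, was called under quantile normalization. Calls lost without 1 library were those of DACH1 (-0.92 without aNE_H replicate 2 and -0.97 without aNE_M replicate 2), DDIT3 (0.90 without aNE_H replicate 2), EMX1 (0.93 without aNE_H replicate 2 and 0.9987 without aNE_M replicate 1), FGFBP3 (0.98 without aNE_H replicate 1 and 0.999 without aNE_M replicate 2), FZD9 (-0.91 without aNE_H replicate 2 and -0.75 without aNE_M replicate 1), GADD45G (-0.97 without aNE_H replicate 1 and -0.92 without aNE_M replicate 1), KDR (0.91 without aNE_M replicate 1), WNT5B (-0.97 without aNE_H replicate 2 and -0.93 without aNE_M replicate 2) and ZNRF3 (-0.92 without aNE_H replicate 2), besides FGF8 (0.88 to 1.28) and TFAP2A (1.13 to 1.40). The cause was not tested. Uncalled genes near 0 changed sign: POU5F1 was 0.00966 under quantile normalization, and without 1 library POU5F1 ran from -0.27 to 0.22, FGF18 from -0.0498 to 0.21, YAP1 from -0.006025 to 0.145 and MKI67 from -0.27 to 0.10. Where a group is left with 1 library, its spread is taken from the other groups. Depth is unknown, so differences of genes near 1 TPM are the least certain.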

Other observations

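Some genes of axon guidance, extracellular matrix, adhesion and growth factor signalling were also called in anterior cells. The share called in either direction was 35.7% of 28 guidance, 36.4% of 11 insulin-like growth factor, 18.2% of 11 cadherin and epithelial and 10.3% of 29 matrix genes, against 6.0% of all tested genes. SEMA6A, a transmembrane semaphorin, had 56.6 and 57.7 TPM in midbrain medium and 173 and 150.3 TPM in hindbrain medium (1.48 ± 0.09 SE, adjusted p = 5.02e-08). The ephrin receptors EPHB1 and EPHB3 went the other way, with 25.5 and 30.3 TPM against 6.55 and 6.78 TPM for EPHB1 (-1.91 ± 0.14 SE, adjusted p = 3.58e-07). COL11A1, a fibrillar collagen, had 35.1 and 39.2 TPM in midbrain medium and 168 and 142 TPM in hindbrain medium, whereas COL5A2, another fibrillar collagen, had 31.2 and 38.04 TPM against 6.74 and 6.86 TPM. Neither collagen overlapped between media, as was so for all called genes. CDH6, a cadherin of the early forebrain and neural crest, had 45.1 and 46.5 TPM against 189 and 178 TPM (1.98 ± 0.08 SE, adjusted p = 1.11e-09), and FN1, fibronectin, had 30.2 and 42.5 TPM against 114 and 107 TPM. IRS2 and INSR, which carry the insulin signal, were higher in hindbrain medium, with 8.41 and 7.93 TPM against 34.05 and 24.6 TPM for IRS2, and the growth factor IGF2 was lower (11.4 and 14.01 TPM against 3.81 and 3.12 TPM). P-values are limma's, adjusted by the Benjamini-Hochberg method over all tested genes.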
